A study of Mus musculus with 24 samples.

Results

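Cd34 and Selp are a pair of cell-surface adhesion genes, each read on these arrays by 1 probe, so that 2 of the 46120 probes are described here. The probes were scl17027.7_391-S for Cd34 and scl17286.15.1_2-S for Selp, taken by the names that the study's list of enriched genes gives them, and no further probe carried either name. Expression was measured in 8 tissues of male C57BL/6 mice aged 7 weeks with Illumina Mouse Sentrix-6 BeadChips, on 24 arrays, 3 from each tissue. Peritoneal mesothelium and pleural/pericardial mesothelium stood beside 6 solid tissues, namely lung, liver, heart, bladder, adipose and skeletal muscle, and no agent or mutant allele is named for any of them. Mesothelium was pooled from many mice, the pleural and pericardial linings were combined into 1 pool, and the labels leave unsaid whether replicate arrays carry RNA of separate animals or pools. P-values therefore measure only the spread between these arrays, which may be technical.

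CD34 is a heavily glycosylated sialomucin of the cell membrane, known from hematopoietic progenitors, from the endothelium of small vessels and from fibroblast-like cells of connective tissue. With sulfated and sialylated sugars it can serve as a ligand of selectins. P-selectin, the product of Selp, is a lectin that lies in the alpha granules of platelets and in the Weibel-Palade bodies of endothelial cells, reaches the surface when these cells are activated, and captures rolling leukocytes through their glycoprotein PSGL-1.

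Both genes lie on the plus strand of mouse chromosome 1, Cd34 at 194938821 to 194961292 and Selp at 164115264 to 164150026 (RefSeq, build GRCm38.p6). The 250 bases before each RefSeq start are shown because the tissue means of this pair correlated outside liver, a likeness partly given by how the genes were chosen. Capitals mark GGAAG, a form of an ETS factor site, read on either strand, and GATAA, a form of a GATA factor site, was searched as well. Other forms of these sites were neither searched nor marked.
Cd34 promoter, chr1:194938571-194938820, plus strand: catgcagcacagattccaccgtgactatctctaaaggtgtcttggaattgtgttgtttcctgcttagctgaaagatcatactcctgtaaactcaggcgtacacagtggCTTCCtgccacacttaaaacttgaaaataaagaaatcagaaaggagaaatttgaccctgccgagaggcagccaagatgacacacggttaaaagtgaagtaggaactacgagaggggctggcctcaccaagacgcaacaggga
Selp promoter, chr1:164115014-164115263, plus strand: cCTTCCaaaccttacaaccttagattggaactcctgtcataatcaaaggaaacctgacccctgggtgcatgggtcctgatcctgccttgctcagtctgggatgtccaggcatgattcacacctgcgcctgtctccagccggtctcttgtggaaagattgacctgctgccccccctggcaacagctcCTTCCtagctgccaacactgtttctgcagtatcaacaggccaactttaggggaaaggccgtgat
The Cd34 window held 1 match to GGAAG, with its last base 138 bases before the start, and the Selp window held 2, at 245 and 60 bases before the start, all on the minus strand and thus written CTTCC. Neither window held GATAA. Among 32851 RefSeq promoter windows of the same length, 64.1% held GGAAG and 22.6% held GATAA, so most windows held a match to GGAAG. For Selp the study also designed primers, given here because it followed this gene outside the arrays. Selp stayed among the candidates that the study took from quantitative PCR to in-situ hybridization. There it reports staining of mesothelium for Msln, Upk3b, Ptgis, Igfbp6, Nkain4 and Lrrn4, and does not name Selp among them. The quantitative PCR pair is followed by the gene-specific part of the pair that made its in-situ hybridization probe.
Selp quantitative PCR, forward: cagggacactgacaatccag
Selp quantitative PCR, reverse: gctttcttagcagagccagga
Selp in-situ probe, forward: gggcatttgctgaggttctc
Selp in-situ probe, reverse: tttggtggagggaaagtctg

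A probe was called detected on an array where fewer than 1% of the negative-control probes were brighter, and 8862 to 13441 probes were detected per array. Levels are given as log2 of the background-corrected and quantile-normalized signal, on which arrays of the same tissue correlated at 0.942 to 0.993. The lowest detected signal of an array lay at 6.07 to 7.24 on that scale. The labelled tissues were checked against marker genes. Of 9 mesothelium markers with a named probe, 7 were highest in peritoneal mesothelium, although the study's list holds several of them. Myh6 and Myl7 were highest in heart, Apoa1 and Apoc3 in liver and Actn3 in skeletal muscle. Actn3 was also detected on 1 of 3 adipose arrays. Its log2 level in adipose was 7.81 ± 4.56 (SD, n = 3), and its signal there ran from 31.5 to 8596. Whether this muscle signal affects the Cd34 level of adipose was not tested. Krt20, the 1 named marker of bladder urothelium, was detected on no array, and none of the adipocyte or lung epithelium markers had a named probe. Myl7, an atrial myosin light chain, averaged 13.34 in pleural/pericardial mesothelium and 13.88 in heart, and Apoa1, an apolipoprotein made by hepatocytes, reached 12.76 on array 1 of peritoneal mesothelium and averaged 15.89 in liver.

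Cd34 was brightest in peritoneal mesothelium and was detected on 21 of the 24 arrays, all but those of liver. Before normalization its signal was 2931.1, 3563.1 and 2296.6 on the peritoneal arrays and 1707.5, 2109.1 and 1499.9 on the pleural/pericardial arrays. On the log2 scale these were 11.81, 11.99 and 11.54 in peritoneal mesothelium, and 11.04, 11.14 and 10.69 in pleural/pericardial mesothelium. The lowest peritoneal array stood above the highest pleural/pericardial array, so the sources did not overlap. Among the solid tissues the Cd34 level was 10.70, 9.79 and 9.44 in adipose, 9.74, 9.93 and 10.05 in heart, and 9.74, 9.74 and 10.01 in bladder. It was 9.92, 9.54 and 9.25 in lung and 9.32, 9.04 and 8.61 in skeletal muscle. Array 1 of adipose thus reached the lowest pleural/pericardial array, while no array of a solid tissue reached the peritoneal arrays.

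Liver was the exception to this broad presence of Cd34. Its signals before normalization were 28.8, 11.7 and 12.2, none was detected, and the liver level of 5.35 ± 0.15 (SD, n = 3) lay below the lowest detected signals of those arrays. In order of the mean, Cd34 stood at 11.78 ± 0.23 in peritoneal mesothelium, 10.96 ± 0.24 in pleural/pericardial mesothelium, 9.98 ± 0.65 in adipose, 9.90 ± 0.16 in heart, 9.83 ± 0.15 in bladder, 9.57 ± 0.33 in lung and 8.99 ± 0.36 in skeletal muscle (SD, n = 3 each). Neighbours from adipose down to skeletal muscle did not pass the test. The log2 difference was 0.07 for adipose minus heart, 0.08 for heart minus bladder, 0.26 for bladder minus lung and 0.58 for lung minus skeletal muscle, the last with a 95% interval of 0.06 to 1.10 and an adjusted p of 0.105 from limma.

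Selp had a steeper profile, in which the peritoneal arrays and 2 of the 3 pleural/pericardial arrays stood above every array of a solid tissue. Its signal before normalization was 632.9, 2301.4 and 1447.1 on the peritoneal arrays and 235.2, 778.7 and 586.7 on the pleural/pericardial arrays. The log2 levels were 9.44, 11.34 and 10.83 in peritoneal mesothelium, and 7.98, 9.61 and 9.26 in pleural/pericardial mesothelium. The sources overlapped, because array 1 of peritoneal mesothelium was below array 2 of pleural/pericardial mesothelium. The highest peritoneal array was 3.73 times the lowest, and the highest pleural/pericardial array was 3.09 times the lowest.

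In the solid tissues Selp was 8.08, 7.89 and 8.01 in bladder, 7.82, 7.70 and 7.82 in adipose, and 7.42, 7.48 and 7.56 in heart. The level was 6.82, 7.66 and 7.59 in lung, 6.54, 7.35 and 7.56 in skeletal muscle, and 6.45, 7.19 and 7.64 in liver. It was detected on all arrays of bladder, adipose, heart and lung, on 2 of 3 of skeletal muscle and on 1 of 3 of liver. No array of a solid tissue reached the lowest peritoneal array, while array 1 of bladder was above array 1 of pleural/pericardial mesothelium. The means were 10.54 ± 0.98 in peritoneal mesothelium, 8.95 ± 0.86 in pleural/pericardial mesothelium, 7.99 ± 0.10 in bladder, 7.78 ± 0.07 in adipose, 7.49 ± 0.07 in heart, 7.36 ± 0.46 in lung, 7.15 ± 0.54 in skeletal muscle and 7.09 ± 0.60 in liver (SD, n = 3 each). From bladder to liver the means spanned less than a log2 unit.

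**Figure D1:**
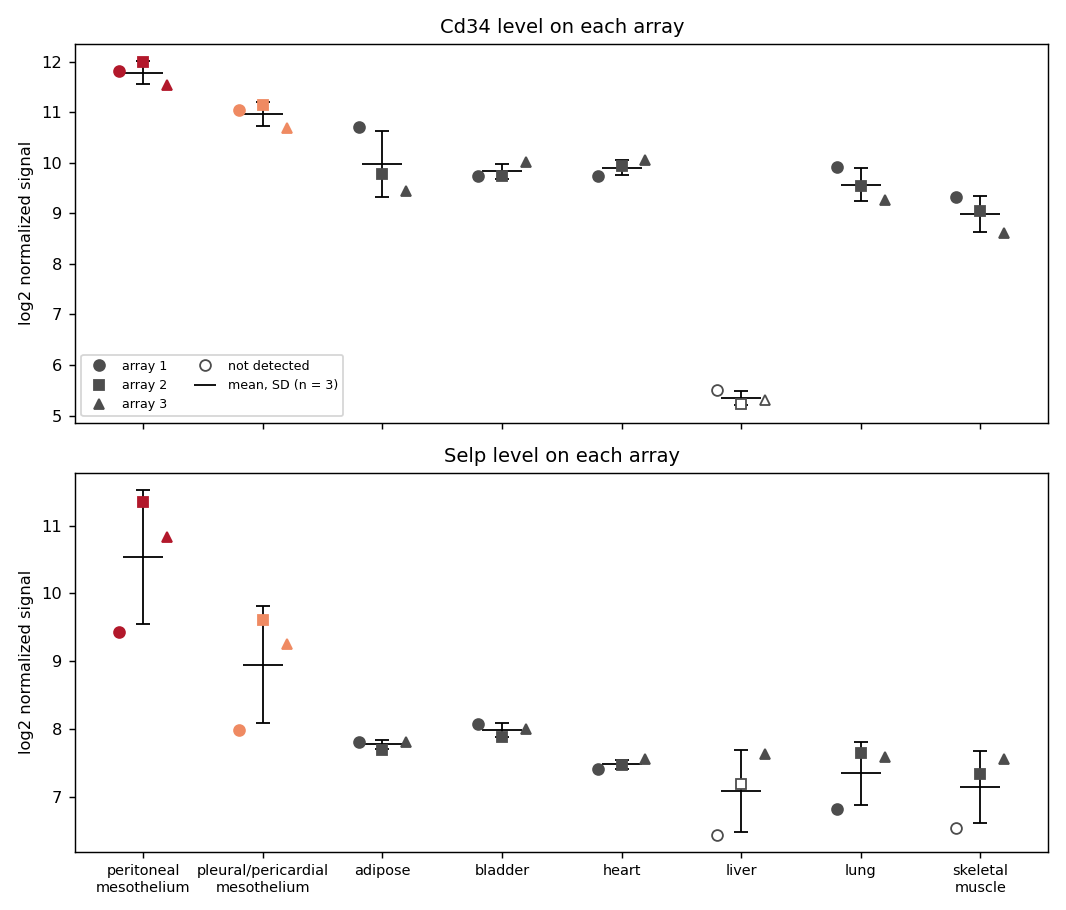
Log2 normalized signal of Cd34 (top) and Selp (bottom) on each of the 24 arrays, by tissue, with the mean and SD of 3 arrays as a black line and bar, symbols for the array number and open symbols for arrays without detection. Cd34 is high in both mesothelium sources, between 8.61 and 10.70 in 5 solid tissues and undetected in liver, while Selp lies between 6.45 and 8.08 in every solid tissue and spreads widely among the mesothelium arrays.

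Over the 28 pairs of tissues, Cd34 differed in 20 and Selp in 11, at an adjusted p under 0.05 from limma. The same rule called 17.6% of all tests over all probes and pairs, and the arrays did not overlap in 20 of 28 pairs for Cd34 and in 20 of 28 for Selp, against 29.2% of all probes and pairs. The study's list, from these same arrays, names both genes as peritoneal. Their pairs of peritoneal mesothelium with a solid tissue were therefore favoured in advance, unlike those of most probes. Among the 15 pairs of solid tissues Cd34 differed in 8, of which 5 involved liver and 3 set adipose, bladder or heart above skeletal muscle. Selp differed in 0 of these 15 pairs, with 1 pair, bladder minus liver, at an unadjusted p under 0.05 (0.0495, adjusted p = 0.173). With the replicate number as a block that pair passed (adjusted p = 0.0495 from limma). Of 7 pairs of neighbours in the order of means, 2 differed for Cd34, which were pleural/pericardial mesothelium above adipose and skeletal muscle above liver, and 1 differed for Selp, which was peritoneal above pleural/pericardial mesothelium.

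Peritoneal mesothelium was then set against each solid tissue, since the study asked which genes mark this lining. The study's own list names this pair as peritoneal from these same arrays, so the direction of the following values is no independent evidence. Cd34 was higher in peritoneal mesothelium than in all 6 solid tissues, by 3.50-fold over adipose, the closest (log2 difference 1.81, SE 0.25, adjusted p = 3.686e-05). The folds were 3.68 over heart, 3.87 over bladder, 4.64 over lung and 6.93 over skeletal muscle, and at least 26.0 over liver, whose level was set to the lowest detected signal of each array. Selp was higher by 5.83-fold over bladder, its closest tissue (log2 difference 2.54, SE 0.43, adjusted p = 0.0002041). It was 6.75-fold over adipose, 8.29-fold over heart, 9.07-fold over lung, 10.4-fold over skeletal muscle and 10.9-fold over liver, where Selp was detected on 2 of 3 and 1 of 3 arrays.

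A probe counted as enriched where limma's B-statistic, the log odds that it differs, was above 0 and its mean at least 2-fold higher in all 6 comparisons. Both genes passed in peritoneal mesothelium, with a lowest B of 5.87 for Cd34 and 2.85 for Selp, as did 0.692% of all probes. By the fold over the closest tissue Selp took place 81 and Cd34 place 158 among the 319 enriched probes. In fits restricted to the 6 arrays of a pair of tissues, the same folds gave a lowest B of -0.92 for Cd34 and -0.74 for Selp, so neither passed.

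In pleural/pericardial mesothelium neither gene was enriched by this rule, which 0.438% of all probes met. Cd34 averaged 1.98-fold over adipose there (log2 difference 0.98, B = -1.08), just short of 2-fold. By adjusted p under 0.05 it was nonetheless higher than in each of the 6 solid tissues, at 0.01945 for adipose and 2.08-fold over heart, 2.19-fold over bladder, 2.62-fold over lung, 3.92-fold over skeletal muscle and at least 14.7-fold over liver. Without adipose array 1, its brightest solid-tissue array, Cd34 was enriched in this source too (smallest log2 difference 1.06, over heart, B = 2.04).

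Selp in pleural/pericardial mesothelium was 1.94-fold its bladder level, and the log2 difference of 0.96 had a 95% interval of 0.06 to 1.86 and an adjusted p of 0.188. Its difference over adipose was 1.17 (interval 0.27 to 2.07, adjusted p = 0.141), and passed with the replicate block (adjusted p = 0.0304 from limma). It was higher than in the other 4 tissues, by 2.76-fold over heart, 3.02-fold over lung, 3.48-fold over skeletal muscle and 3.63-fold over liver. The adjusted p-values of these 4 ran from 0.02164 for heart to 0.002605 for liver.

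**Figure D2:**
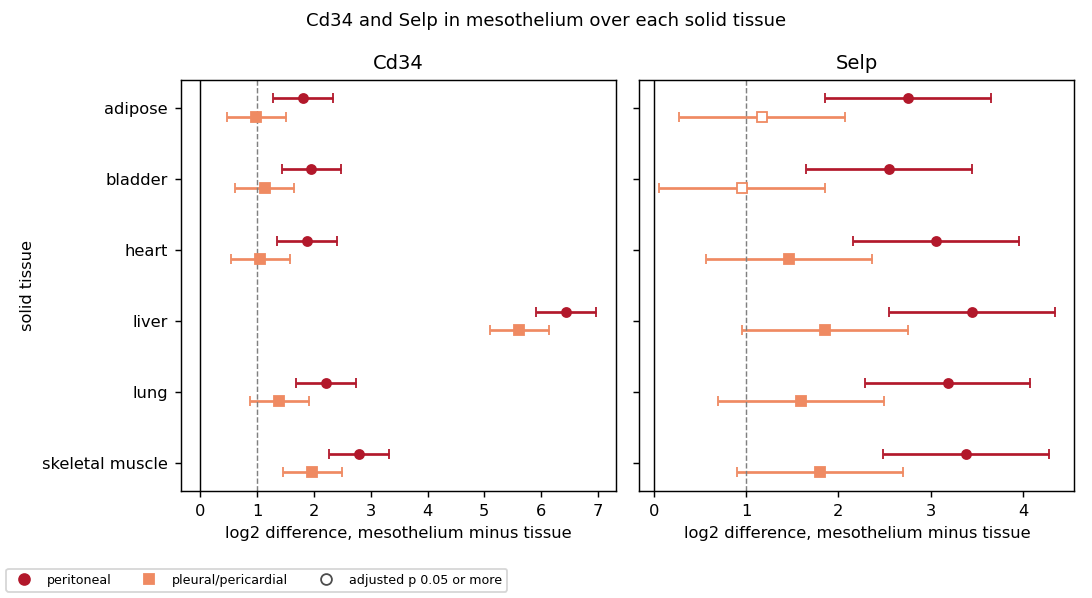
Log2 difference of peritoneal (circles) and pleural/pericardial (squares) mesothelium from each solid tissue for Cd34 (left) and Selp (right), with 95% intervals from limma, a dashed line at 2-fold and open symbols at an adjusted p of 0.05 or more. All peritoneal intervals lie above the 2-fold line, the pleural/pericardial ones of Cd34 over adipose, bladder, heart and lung and all those of Selp reach it, and the Cd34 values over liver rest on undetected liver arrays.

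The mesothelium sources were also compared with each other. Selp was 3.00-fold higher in peritoneal than in pleural/pericardial mesothelium (log2 difference 1.58, SE 0.43, adjusted p = 0.0311), a direction and threshold that 3.41% of all probes met, while 2.4% of all probes were lower in peritoneal mesothelium. This SE comes from a spread shared by all tissues. The Selp SD was 0.98 and 0.86 in the compared sources but 0.07 in heart, so the SE understates their spread. Fitted alone, the sources gave an adjusted p of 0.287 from limma. Cd34 was 1.77-fold its pleural/pericardial level, and its log2 difference of 0.82 (SE 0.25, 95% interval 0.30 to 1.35) did not pass, at an adjusted p of 0.0622. Without peritoneal array 2, peritoneal array 3 or pleural/pericardial array 1 the Selp difference was 1.18, 1.44 and 1.10 and no longer passed (adjusted p = 0.206, 0.120 and 0.211).

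In both sources the arrays of a replicate number deviated together. Selp exceeded its pleural/pericardial level by 1.46 for number 1, 1.73 for number 2 and 1.57 for number 3 on the log2 scale, a mean of 1.58 ± 0.14 (SD, n = 3), although the levels themselves spanned 1.90 within peritoneal and 1.63 within pleural/pericardial mesothelium. Cd34 exceeded it by 0.77, 0.85 and 0.85, a mean of 0.82 ± 0.05 (SD, n = 3). All 3 numbers thus gave nearly the same step for a given gene. With the replicate number as a block over all 24 arrays, the adjusted p from limma was 0.0320 for Cd34, which then passed, with an SE of 0.22 in place of 0.25, and 0.00364 for Selp, with an SE of 0.32 in place of 0.43. With the block in the 6 mesothelium arrays alone, an alternative added after the values were seen, it was 0.00594 for Cd34 and 0.000555 for Selp.

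The order of the arrays was also read outside the mesothelium. For Selp array 1 was the lowest in heart, liver, lung and skeletal muscle, but not in adipose or bladder. For Cd34 array 3 was the lowest in adipose, lung and skeletal muscle, but the highest in bladder and heart. What the replicate numbers stand for is not given in the sources used here.

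Pecam1 and Msln did not share the order of the Selp arrays. Pecam1, an adhesion molecule of endothelial junctions, was 8.60, 7.12 and 8.50 in peritoneal mesothelium, and 9.50, 8.08 and 9.72 in pleural/pericardial mesothelium, lowest in both sources on array 2, where Selp was highest. Msln, mesothelin, was 12.01, 11.90 and 11.86 in peritoneal mesothelium and 10.76, 10.72 and 10.88 in pleural/pericardial mesothelium, nearly level within each source. Other mesothelium markers went both ways. Muc16 had the Selp order in both sources (11.12, 11.32 and 11.25, then 9.25, 10.18 and 9.98), and Gpm6a was lowest on array 1 in both. Krt8 and Krt18 were highest on array 1 in both. Among adhesion genes Jam3 had the Selp order in both sources, while Vcam1 was highest on array 1 in both. The summed signal of the hepatocyte markers was 8250, 2843 and 809.1 on peritoneal arrays 1 to 3 and 225.7, 381.8 and 393.8 on pleural/pericardial arrays 1 to 3. Array 1, lowest in Selp in both sources, had the most hepatocyte signal of the peritoneal arrays and the least of the pleural/pericardial arrays. A link between this signal and the Selp level was not tested.

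**Figure D3:**
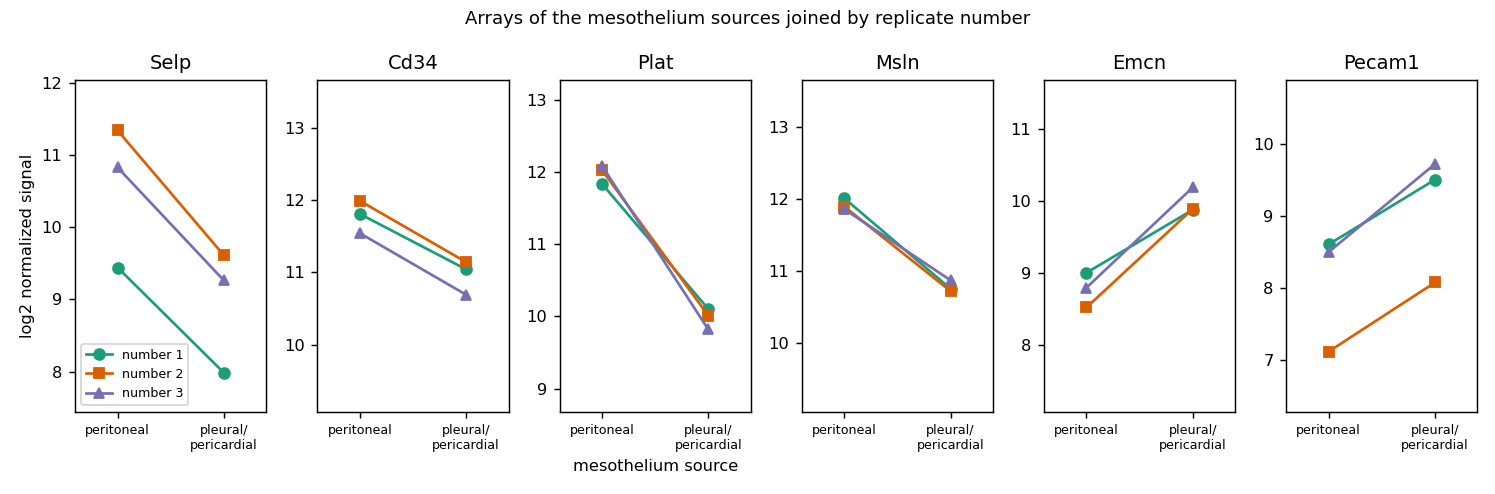
Log2 normalized signal in peritoneal (left) and pleural/pericardial (right) mesothelium, with arrays of the same replicate number joined, for Selp, Cd34 and 4 listed genes, each panel spanning the same range on its own scale. The Selp and Cd34 lines run nearly parallel and fall to the right by 1.46 to 1.73 and 0.77 to 0.85, number 1 is lowest for Selp, and number 2 is lowest for Pecam1.

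Genes around this pair were described through fixed lists, each gene by its brightest named probe, with lung, the tissue with the most endothelial signal, as the comparison. Of all probes, 6.29% were higher and 5.88% lower in peritoneal mesothelium than in lung, and 6.71% were higher and 7.35% lower in pleural/pericardial mesothelium than in lung, with medians over all probes of 0.01 on the log2 scale for each.

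Of 10 selectins and selectin ligands 5 had a named probe, and Cd34 and Selp were the 2 of them that were higher in peritoneal mesothelium than in lung. Emcn, an endothelial sialomucin, was lower by 5.79-fold, with log2 levels of 8.77 ± 0.24 in peritoneal mesothelium and 11.31 ± 0.36 in lung (SD, n = 3 each). Cd24a, a small glycoprotein that P-selectin can bind, was lower as well but was detected on only 1 of 24 arrays. Podxl2, a sialomucin related to CD34, was detected nowhere.

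Enzymes that build the sugars and sulfates of selectin ligands were measured by 6 of 12 listed genes, and 3 were higher and 1 lower in peritoneal mesothelium than in lung. Chst4, a sulfotransferase that makes selectin ligands in high endothelial venules, was 10.8-fold higher (9.63 ± 0.24 in peritoneal mesothelium and 6.19 ± 0.98 in lung, adjusted p = 1.432e-07), was 6.02-fold higher in pleural/pericardial mesothelium, and was enriched over all 6 tissues in both sources. Its probe was detected on 1 of 3 lung arrays and had its name only from the study's list of enriched genes, so its direction is no independent evidence. Chst1, a sulfotransferase of galactose, was 3.54-fold higher in peritoneal mesothelium and 4.09-fold higher in pleural/pericardial mesothelium. Its highest level was in adipose (12.58), where peritoneal mesothelium (11.77) was 1.76-fold lower (adjusted p = 0.00807 from limma). Tpst1, which sulfates tyrosines of proteins such as PSGL-1, was 1.81-fold higher in peritoneal mesothelium, and Chst2 was 2.40-fold lower. Against bladder Tpst1 did not pass (10.32 in peritoneal mesothelium and 10.24 in bladder). St3gal4 and St3gal6, which add sialic acid, did not pass in either source.

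Of 9 listed genes of venules and of the Weibel-Palade bodies that store P-selectin, 4 had a named probe. Plat, the tissue plasminogen activator, had log2 levels of 11.84, 12.03 and 12.09 in peritoneal mesothelium and 10.10, 10.01 and 9.82 in pleural/pericardial mesothelium. The sources did not overlap for Plat, which was 4.02-fold higher in peritoneal mesothelium than in pleural/pericardial mesothelium and 8.13-fold higher than in lung. Its probe, too, was named only by the study's list of enriched genes. Cd63, a tetraspanin of the same storage bodies and of lysosomes, was 2.12-fold higher in peritoneal than in pleural/pericardial mesothelium. Against bladder Cd63 did not pass (13.22 in peritoneal mesothelium and 13.20 in bladder). Ephb4, a receptor of venous endothelium, was 3.17-fold lower in peritoneal mesothelium than in lung, and Nr2f2 was detected nowhere. Among surface sialomucins and syndecans, 7 of 10 with a named probe, Sdc2 and Sdc3 joined Cd34 as the 3 genes higher in peritoneal mesothelium than in lung, by 1.82-fold and 1.57-fold, and Sdc1, Emcn and Spn were the 3 lower, Spn without detection on any array.

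Endothelial markers were lower in mesothelium than in lung, the tissue with their highest sum. Of 20 listed markers 6 had a named probe, and all 5 that were detected were lower in both mesothelium sources than in lung. Pecam1 was 13.8-fold lower in peritoneal mesothelium than in lung, Egfl7, a matrix protein secreted by endothelium, 13.7-fold, Eng, a co-receptor of TGF-beta, 7.45-fold, and Robo4, a receptor of vessels, 6.16-fold. The fifth was Emcn, given above, and Erg was detected nowhere. The summed signal of these markers ran from 1212 to 2275 in peritoneal mesothelium, from 2652 to 3379 in pleural/pericardial mesothelium, from 9776 to 16090 in lung, from 7308 to 7830 in heart, from 3358 to 5038 in adipose, from 3441 to 4353 in skeletal muscle, from 2166 to 2257 in bladder and from 1855 to 2008 in liver. Peritoneal mesothelium thus overlapped bladder and liver. Of the 6 markers it had 5 lower than heart, 3 lower than adipose, 3 lower than skeletal muscle, and Emcn alone lower than bladder, while against liver Eng and Robo4 were lower and Emcn was higher. Against pleural/pericardial mesothelium, peritoneal mesothelium had 1 of the 6 markers lower, Emcn by 2.31-fold, and with the replicate block Eng as well, by 1.78-fold (adjusted p = 0.0138 from limma). Pecam1 was 0.90, 0.96 and 1.22 below its pleural/pericardial level on the log2 scale for numbers 1 to 3, without passing (adjusted p = 0.581, and 0.414 with the block). Of 6 measured genes of endothelial adhesion 3 were lower in peritoneal mesothelium than in lung, Vcam1, Pecam1 and Alcam, and 1, Jam3, was higher, without detection in lung. Against pleural/pericardial mesothelium, Vcam1 was 4.39-fold and Jam2 2.14-fold lower in peritoneal mesothelium, F11r was 3.68-fold higher, and the other 3 did not pass. In bulk tissue, fewer cells of a type cannot be told apart from less RNA per cell.

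Markers of the other cells known for P-selectin or CD34 were few. Of 13 platelet and megakaryocyte markers 2 had a named probe, Itga2b and Gp1bb, and neither was detected on any array, with a summed signal of 66.9 to 83.03 in peritoneal mesothelium and 66.68 to 86.55 in lung. Of 12 markers of hematopoietic progenitors 2 had one, Lmo2 and Runx1, and both were lower in peritoneal mesothelium than in lung, Lmo2 by 2.83-fold and Runx1, detected on no peritoneal array, by at least 4.47-fold. Against adipose both were lower, against bladder Runx1 alone was, and against heart neither passed. Against liver and skeletal muscle both were higher, Runx1 without detection on either side. Of 12 markers of CD34-type stromal fibroblasts 3 had one. Dcn, a matrix proteoglycan, was 5.89-fold higher in peritoneal mesothelium than in lung and 1.88-fold higher than in pleural/pericardial mesothelium, Col1a1, a chain of type I collagen, was 4.24-fold and 3.82-fold higher, and Sfrp1 did not pass. Against adipose Dcn alone was higher, and against bladder Dcn was higher and Sfrp1 lower. The study's list holds Dcn as a peritoneal gene from these same arrays. The summed signal of these 3, led by Dcn, was 55630 to 60510 in peritoneal mesothelium, 26820 to 32170 in pleural/pericardial mesothelium and 9378 to 11270 in lung. It was 28710 to 35790 in bladder and 22990 to 29450 in adipose, both overlapping pleural/pericardial mesothelium, and lower in the other solid tissues. The mesothelium markers summed to 39020 to 45460 in peritoneal mesothelium, 15830 to 18720 in pleural/pericardial mesothelium and 5679 to 11740 in lung, and 4 of the 9, Wt1, Muc16, Krt8 and Krt19, were higher in peritoneal than in pleural/pericardial mesothelium. In bladder these markers summed to 25250 to 28650, above pleural/pericardial mesothelium. Both sums thus moved between the sources in the direction of Cd34 and Selp. So did those of the hepatocyte markers and of the venule and Weibel-Palade list (12640 to 16560 in peritoneal and 5458 to 6658 in pleural/pericardial mesothelium). Others moved the opposite way, among them the endothelial and heart muscle markers and the progenitor markers (813.1 to 1116 in peritoneal and 1784 to 1923 in pleural/pericardial mesothelium). The part of any of these in the levels of Cd34 and Selp was not tested.

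Leukocyte markers were also read. Of 3 measured mast cell markers 3 were higher in peritoneal mesothelium than in lung, among them Cma1, a mast cell chymase, at 9.22 in peritoneal mesothelium, 8.69 in pleural/pericardial mesothelium and 5.88, without detection, in lung. The third, Fcer1a, was detected on only 2 of 24 arrays. Against adipose neither Cma1 nor the second marker, Mcpt4, passed in either source. Of 4 macrophage markers Csf1r and Itgam were higher, Itgam with detection on only 1 of 24 arrays, and Lyz2 was lower, and Jchain, the 1 measured marker of B and plasma cells, was detected on 1 array. Between the mesothelium sources the adjusted p-values of these 8 genes from limma ran from 0.0750 for Jchain to 0.992 for Csf1r, and their part in the levels of Cd34 and Selp was not tested.

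**Figure D4:**
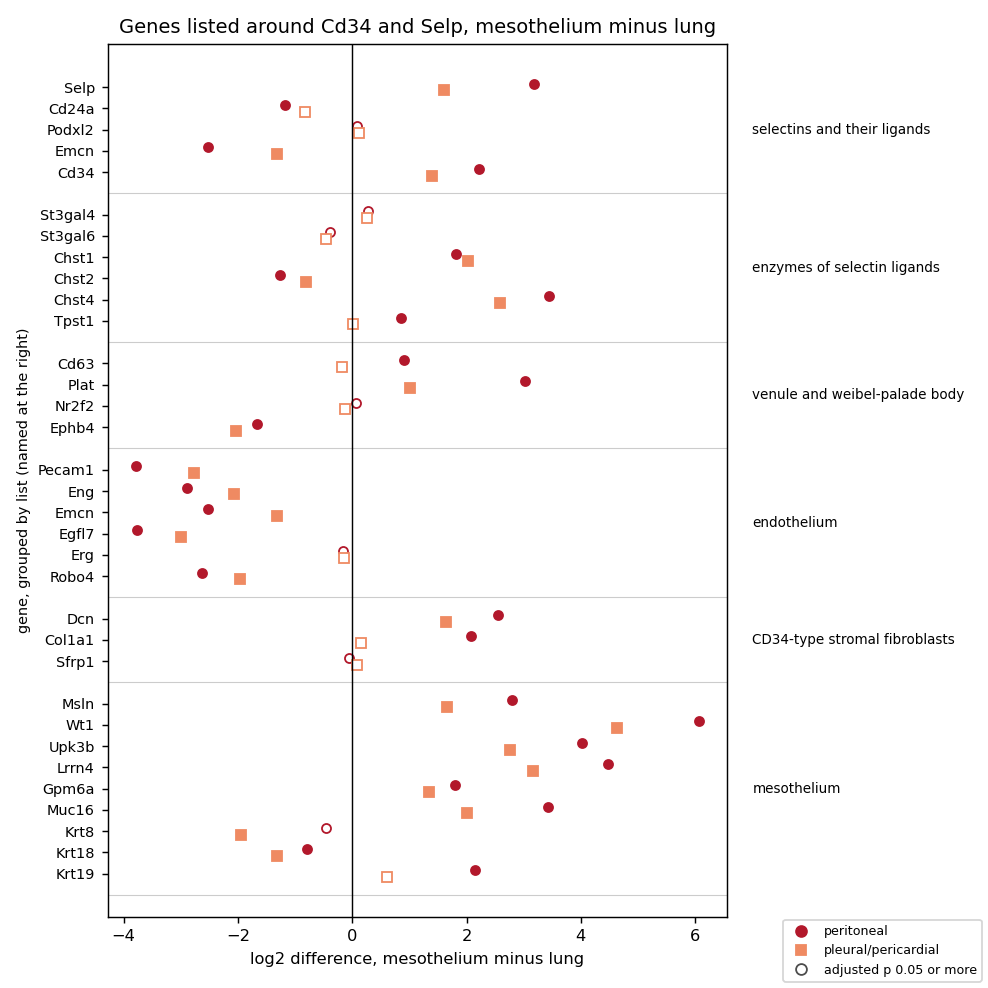
Log2 difference of peritoneal (circles) and pleural/pericardial (squares) mesothelium from lung for the genes of 6 lists, with open symbols at an adjusted p of 0.05 or more. Cd34, Selp, Chst4, Plat and Dcn lie to the right of 0 in both sources and the 5 detected endothelial markers to the left, while Podxl2, Nr2f2 and Erg were detected on no array.

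Across the 8 tissue means the levels of Cd34 and Selp had a Pearson r of 0.71, and over the 7 means without liver 0.97. These are descriptions over means that share arrays, with Selp undetected on some arrays of liver and skeletal muscle. Both genes were also taken from a list of genes high in mesothelium on these arrays, so a shared peak there was given in advance. The 10 named probes most like each gene in their 8 tissue means were then listed, among 4811 named of 15537 probes detected on all 3 arrays of some tissue. For Cd34 the r ran from 0.97 to 0.99, led by Htra1, a secreted serine protease, Serpinh1, a chaperone of collagen, Olfml2b, Cd151, a tetraspanin, and Loxl1, a cross-linking enzyme of elastin. The others were Galntl2, Plac9a, Ssbp4, Txnl4a and a further probe of Cd151, and 5 of the 10 were enriched in peritoneal mesothelium. For Selp the r also ran from 0.97 to 0.99, and the probes were Glt8d2, Fam70a, Obsl1, Wnt6, Isl1, Cpz, Kcnip3, Colec12, Efemp1 and Ikbip, of which all 10 were enriched in peritoneal mesothelium. The study's list gave the names of many of these probes, so genes of that list had more chance to appear. Probes chosen for likeness to a gene highest in peritoneal mesothelium are also favoured to be enriched there, as 0.692% of all probes were. The counts of enriched probes are therefore no independent evidence.

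The profiles most like Selp differed from it in the size of the step between the sources. Isl1, a homeodomain factor, averaged 11.36 in peritoneal and 8.04 in pleural/pericardial mesothelium, a 9.94-fold step, and Fam70a 11.68 and 8.05, a 12.4-fold step. Wnt6, a secreted Wnt ligand, averaged 6.35 and 5.82, a 1.45-fold step, with detection on 1 of 3 pleural/pericardial arrays. The Selp step was 3.00-fold. Among the profiles most like Cd34, whose step was 1.77-fold, Htra1 had a step of 2.69-fold, Galntl2 3.31-fold and Ssbp4 1.06-fold.

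**Figure D5:**
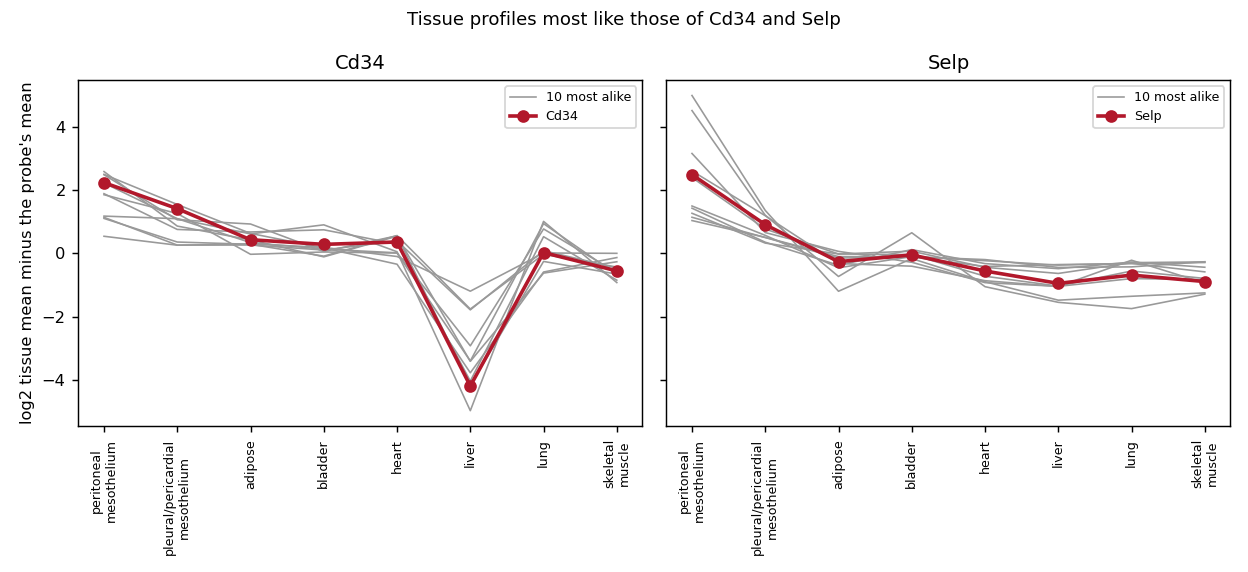
Log2 tissue mean minus the mean over 8 tissues for Cd34 (left, red) and Selp (right, red) and for the 10 named probes most like each (grey). The Cd34 group falls in liver and the Selp group is highest in peritoneal mesothelium, with a spread of 0.30 to 2.40 between the solid tissue means of a probe, widest for Isl1.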

How the data were processed

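Samples were grouped by their titles. From BeadStudio the authors deposited, for 46120 probes, a background-subtracted signal intensity without normalization and a detection score, a fraction that is in fact 1 minus a detection p-value. Their Lumi quantile-normalized intensity table served as an alternative. Because 36% of the deposited intensities were 0 or lower, normexp (limma, offset 16) was applied, using 1616 negative controls inferred from the scores without 10 rows off the common steps. Quantile normalization and log2 followed. The offset shrinks folds of dim probes.

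A limma model (version 3.58.1, R 4.3.3, assumed share of changed probes 0.01) had a mean for each tissue. For each probe it used a single estimate of the spread, shared by all tissues. Benjamini-Hochberg adjustment covered all probes within a comparison. The fit was tested on simulated data with independent arrays and, for each probe, the same spread in all tissues. That setting lacks the pairing described below and the unequal spreads of Selp, so it cannot show that the fit suits these data. No array duplicated another.

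Names came from the study's supplementary lists (350 probes) or from a Gene ID within the identifier that matched the RefSeq gene table (9735 more). Of 97 probes named both ways, 92 had the same gene. Listed genes were read by their brightest named probe, 1 listed gene is not reported here, and likeness was Pearson r over tissue means. Members, lists and rules were chosen with earlier results of these data known.

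As a check of pairing, same-numbered peritoneal and pleural/pericardial arrays correlated in their deviations from the tissue means (r of 0.60, 0.59 and 0.63), and differently numbered ones correlated negatively (-0.41 to -0.16). Deviations from a tissue mean cancel out within that tissue, so negative values must accompany positive ones and add no evidence. The pairing thus comes from the data, and the block was an alternative since the methods name none. Other alternatives were the background step, offset, normalization, negative controls, fits of each tissue pair alone, a detection filter, the call rule and left-out arrays. Chips and array probe sequences are not given in the sources used here.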

Additional observations from a re-analysis of the deposited data

How the results depend on the processing

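No result changed direction under any alternative that was run. With each pair of tissues fitted alone, peritoneal enrichment was lost for Cd34 (log2 difference 1.81, lowest B -0.92) and for Selp (2.54, lowest B -0.74), and the Selp difference between the sources no longer passed (1.58, adjusted p = 0.287 from limma). These fits rest on 6 arrays and on the spread of the compared tissues alone. The Selp source difference also missed a rule of B above 0 and 2-fold (1.58, B = -1.59). The Cd34 source difference of 0.82 passed when only detected probes were tested (adjusted p = 0.0300), when the replicate block was added over all arrays (0.0320), and when the replicate block was used in the 6 mesothelium arrays alone (0.00594). The block also added 2 pairs of tissues for Selp, pleural/pericardial mesothelium above adipose and bladder above liver, and changed no other call of Cd34 or Selp. The endothelial counts against tissues other than lung, and the block for listed genes, were added after seeing the data. With all rows behind the negative controls Selp differed in 7 of 28 pairs in place of 11.

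With 1 array left out at a time, the smallest log2 difference ran from 1.54 to 1.93 for Cd34 and from 2.14 to 3.09 for Selp in peritoneal mesothelium, and all 24 repeats kept both calls. In pleural/pericardial mesothelium it ran from 0.72 to 1.12 for Cd34, called without adipose array 1, and from 0.63 to 1.44 for Selp. The source difference ran from 0.69 to 0.94 for Cd34, which passed without adipose array 1 (adjusted p = 0.00905) or adipose array 3 (0.0323), and from 1.10 to 2.13 for Selp, which failed without peritoneal array 2 or 3 or pleural/pericardial array 1. Pairs of tissues that differed numbered 18 to 22 for Cd34 and 9 to 12 for Selp. With a replicate number left out of both sources at once, an alternative added after seeing the data, the Selp source difference was 1.65 without number 1 (adjusted p = 0.00816), 1.51 without number 2 (0.0971) and 1.59 without number 3 (0.145). The causes were not tested. The 3 arrays per tissue, and Selp signals near background in liver and skeletal muscle, limit the precision.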
